A study of Mus musculus with 16 samples.

Results

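The ERK cascade carries signals from growth factor receptors to the nucleus, and the RSK and MSK kinases are its last kinases. Of 9 genes of this cascade chosen by symbol, 8 had a probe set that the platform's annotation pairs with their symbol alone, 1 probe set each, among 21789 such probe sets on the array. They were *Rps6ka3* (probe set 10602772), *Rps6ka6* (10606445), *Rps6ka5* (10402117), *Pdpk1* (10448424), *Ptpn11* (10533285), *Braf* (10544219), *Map2k1* (10594447) and *Map2k2* (10364971). *Mapk3*, which encodes the kinase ERK1, had no such probe set and was not analysed here. All 8 exceeded a log2 signal of 5 in 1 or more samples. The same held for 18834 probe sets of 17215 genes, which made up the tested set.

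RNA was measured on Affymetrix Mouse Gene 1.0 ST arrays in lower first molar germs of C57Bl6 mouse embryos at E14.5, the cap stage of tooth development. The samples came in equal number, 8 each, from *Rsk2-/Y* males, hemizygous knockouts of *Rps6ka3*, and from wild-type (WT) littermate males. Each sample was a pool of 4 tooth germs by the labels, with epithelium and mesenchyme together, so a lower signal in a pool can come from fewer cells of a type or from less RNA per cell, and these cannot be told apart. By the start of its name each sample belonged to a series called ABH or to one called AZN, with 4 samples of either genotype in both, and no source used here explains these names. Nothing says which pools share a litter, so the p-values measure the spread between these pools only.

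When a growth factor such as FGF binds its receptor, the phosphatase SHP2, encoded by *Ptpn11*, helps to bring RAS into its active state. Active RAS recruits the kinase BRAF, which phosphorylates MEK1 and MEK2 (*Map2k1* and *Map2k2*), and these activate ERK1 and ERK2. ERK switches on RSK2 (*Rps6ka3*), the kinase lost in Coffin-Lowry syndrome, and also MSK1 (*Rps6ka5*), a nuclear kinase that phosphorylates histone H3 and CREB1. PDK1, encoded by *Pdpk1*, completes the activation of most RSK kinases, whereas RSK4 (*Rps6ka6*) is known to be active largely without it. Most of this control is exerted on the proteins by phosphorylation, which an RNA array does not measure. In the tooth germ, FGF signals from the enamel knot, a signalling centre of the epithelium, reach both tissue layers through this cascade.

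Promoter sequence was given for 7 of the 9 genes in the RefSeq table of GRCm38.p6, in 9 windows from 250 bases before to 50 bases after an annotated start. The cAMP response element TGACGTCA, which is its own reverse complement and is bound by the RSK and MSK substrates CREB1 and ATF1, was searched in each window. *Braf* and *Ptpn11* held it, 2 of the 9 windows, against 1.79% of 32851 mouse windows of the same length. Both are shown because they are the members whose windows held this element. Each is written 5′ to 3′ on the strand of the gene, which is the minus strand for both, with the element in capitals.
*Braf*, chr6:39725517-39725582: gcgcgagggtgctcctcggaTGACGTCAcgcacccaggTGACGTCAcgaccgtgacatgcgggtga
*Ptpn11*, chr5:121191437-121191484: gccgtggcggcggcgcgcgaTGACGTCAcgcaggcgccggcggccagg
The matches began 99 and 81 bases before the *Braf* start and 67 bases before the *Ptpn11* start. The GC box GGGCGG, searched on both strands, was in 7 of the 9 windows, against 35.7% of all windows. These are matches of letters and not measured binding sites.

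The dissected tissue carried the markers of a molar germ in every sample. *Krt14* of the epithelium had log2 signals of 11.08 to 11.82, and *Barx1* and *Msx1*, transcription factors of the molar mesenchyme, had 10.98 to 11.53 and 10.01 to 10.83. The mean over 22 skeletal muscle genes was 7.44 to 8.86 in WT and 7.4 to 9.76 in *Rsk2-/Y* pools, highest in AZN_MolairesMutant3 at 9.76 and ABH_14A at 9.4. In *Rsk2-/Y* against WT, 21 of these 22 genes lay above 0 (median log2 difference 0.575) and all 18 measured genes of a dental epithelium list lay below 0 (median -0.22), against a median of -0.016 over all genes. None of these list genes was called between genotypes. At an unadjusted p under 0.05 in limma, 13 of the 18 epithelial genes were lower and 5 of the 22 muscle genes higher. Over all 18834 probe sets tested, 540 were lower and 222 higher at that level. The part of this tissue composition in the results below was not tested beyond the values given with them.

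The first question was whether loss of RSK2 was accompanied by a change in the RNA of its own family or of the kinases above it. None of the 8 genes was called between genotypes, and neither was any of the 18834 probe sets (0.0%) at an adjusted p under 0.1 and a fold change beyond 1.2 (limma, Benjamini-Hochberg). At an unadjusted p under 0.05 there were 762 probe sets (4.05%), 222 higher and 540 lower, and none of the 8 genes was among them. Their log2 differences lay between -0.029 and 0.096.

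*Rps6ka3*, the targeted gene, was at 9.61 to 10.22 in the 8 WT samples (median 10.04) and at 9.74 to 10.4 in the 8 *Rsk2-/Y* samples (median 10.06). The groups overlapped over most of their range, and 3 *Rsk2-/Y* samples lay above every WT sample. With means of 9.99 ± 0.23 and 10.09 ± 0.28 (SD, n = 8 each), limma gave a log2 difference of 0.096 ± 0.12 (standard error) at an adjusted p of 1.0. Its 95% interval ran from -9.98% to 26.8% in *Rsk2-/Y* relative to WT. The probes of this array lie along the whole transcript and are summarised into 1 value. Per the study's methods the targeted allele lacks a single exon, which causes a frameshift. What the frameshift does to the level of this RNA was not tested, so the value does not settle whether the genotype labels are right. Of the 10 nearest genes of *Rps6ka3* on the X chromosome, 8 were tested, and none had an unadjusted p under 0.05 in limma. *Smpx* was at a log2 difference of 0.55 (unadjusted p = 0.125 from limma), and the other tested neighbours lay from -0.072 to -0.018.

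*Rps6ka6*, the other RSK gene measured and also X-linked, was at 8.56 to 9.1 in WT (median 8.91) and at 8.63 to 9.07 in *Rsk2-/Y* (median 8.85). All *Rsk2-/Y* values lay within the WT range. The log2 difference was -0.029 (standard error 0.083, adjusted p = 1.0 from limma), with an interval from -13.1% to 10.5%. *Rps6ka5*, which encodes MSK1, was at 7.77 to 8.18 in WT (median 7.91) and at 7.47 to 8.29 in *Rsk2-/Y* (median 8.0). Its log2 difference was 0.013 (interval -0.21 to 0.24), and the *Rsk2-/Y* samples spread on both sides of the WT range, with 2 below and 3 above all WT samples.

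The kinases and the phosphatase above RSK2 were as close between genotypes. *Pdpk1*, the PDK1 gene, had a log2 difference of -0.0093 with an interval of -0.21 to 0.2. *Ptpn11*, the SHP2 gene, had 0.00011 with an interval of -0.1 to 0.1, which is -6.79% to 7.3%. *Braf* had 0.022 with an interval of -0.17 to 0.22. The MEK genes were at -0.019 for *Map2k1*, with an interval of -0.15 to 0.11, and at -0.0073 for *Map2k2*. *Map2k2* had the narrowest interval of the 8 genes, from -5.66% to 4.93%, with WT samples at 9.27 to 9.4 and *Rsk2-/Y* samples at 9.24 to 9.37. In this fit, which leaves out the series, the interval of *Rps6ka3* was the only one of the 8 that reached past a fold change of 1.2, on the higher side. With the series as a block the interval of *Rps6ka3* narrowed to -3.2% to 17.9%, and 0 of the 8 passed that fold.

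**Figure D1:**
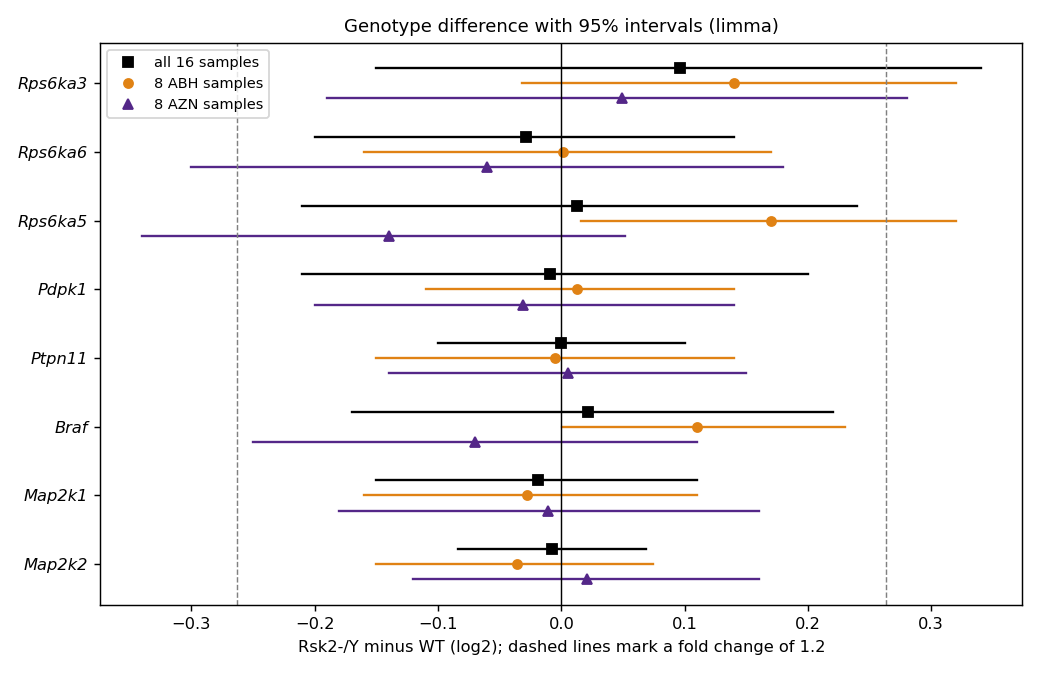
Genotype differences of the 8 genes (*Rsk2-/Y* minus WT, log2, on the x axis) with 95% intervals from limma, over all 16 samples (squares), the 8 ABH samples (circles) and the 8 AZN samples (triangles). All 16-sample intervals include 0, and those of *Rps6ka5* and *Braf* from the ABH samples alone lie above 0, from 0.016 to 0.32 and from 0.00088 to 0.23, where 4.38% of all probe sets were higher at an unadjusted p under 0.05.

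Within the series, the genotype differences of 6 of the 8 genes had opposite signs in ABH and AZN. No share over all probe sets is given for this count. Several were near 0 in both series: *Ptpn11* (-0.0053 in ABH, 0.0055 in AZN), *Pdpk1* (0.013, -0.031), *Rps6ka6* (0.0012, -0.06) and *Map2k2* (-0.036, 0.021). The differences of *Rps6ka5* and *Braf* lay farthest apart. In the ABH samples *Rps6ka5* was at 7.9, 8.0, 8.12 and 8.18 in WT and at 8.16, 8.19, 8.29 and 8.24 in *Rsk2-/Y*. All 4 *Rsk2-/Y* values lay above the WT mean and 3 of them above every WT value. In the AZN samples it was at 7.77, 7.91, 7.88 and 7.85 in WT and at 7.8, 7.72, 7.47 and 7.84 in *Rsk2-/Y*, and all 4 *Rsk2-/Y* values lay below the WT mean. The log2 differences were 0.17 in ABH (unadjusted p = 0.0334, adjusted p = 0.341 from limma) and -0.14 in AZN (unadjusted p = 0.133, adjusted p = 1.0). In ABH 4.38% of all probe sets were higher in *Rsk2-/Y* at an unadjusted p under 0.05. The test of the difference between them, the interaction of genotype and series in limma, gave -0.31 (standard error 0.11, unadjusted p = 0.0128, adjusted p = 0.728). No probe set was called for this interaction (0.0%), while 6.31% had an unadjusted p under 0.05.

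*Braf* showed the same arrangement on a smaller scale. In ABH its 4 *Rsk2-/Y* samples, at 9.69 to 9.73, lay above its 4 WT samples, at 9.53 to 9.66, as was so for 2.81% of all probe sets. In AZN, 3 of the 4 *Rsk2-/Y* samples, at 9.15, 9.26 and 9.3, lay below the WT mean of 9.37 and the fourth was at 9.47. The log2 differences were 0.11 and -0.07, and the interaction was -0.18 (standard error 0.093, unadjusted p = 0.0632, adjusted p = 0.793 from limma). *Rps6ka3* was higher in *Rsk2-/Y* by a log2 difference of 0.14 in ABH and 0.049 in AZN (adjusted p = 0.472 and 1.0 from limma). For the other 5 genes the differences within a series lay between -0.06 and 0.021.

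**Figure D2:**
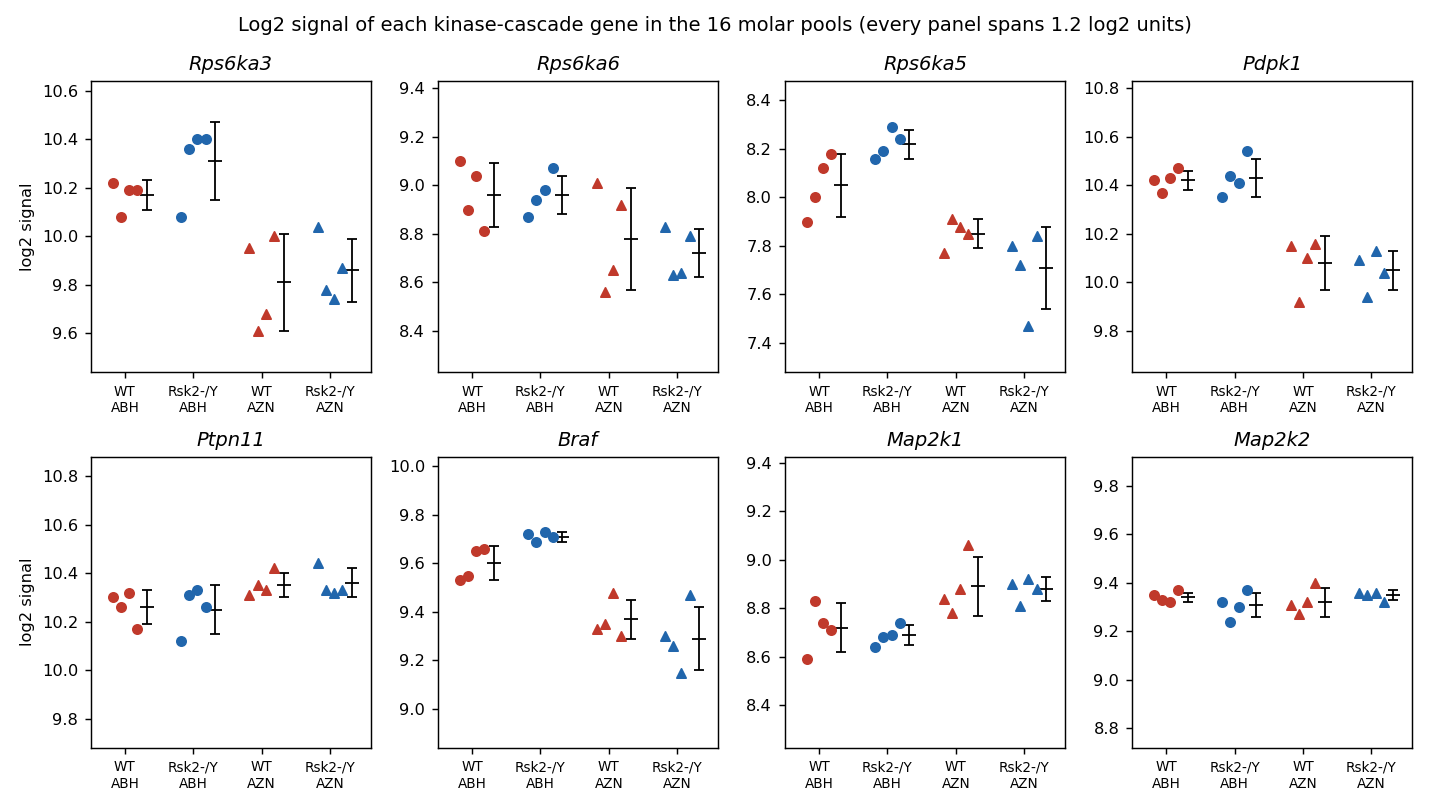
Log2 signal of each gene (y axis, each panel spanning the same number of log2 units) in the 16 pools, split by genotype and series (x axis); red is WT, blue *Rsk2-/Y*, circles ABH, triangles AZN, and bars give the mean ± SD of the 4 samples beside them. *Rps6ka3*, *Pdpk1* and *Braf* are lower in every AZN sample than in any ABH sample, while *Map2k2* stays between 9.24 and 9.4 in all samples.

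The second comparison was between the series, which hold equal numbers of each genotype. *Rps6ka3*, *Rps6ka5*, *Pdpk1* and *Braf*, the genes of RSK2, MSK1, PDK1 and BRAF, were called lower in the AZN samples, 4 of 8 genes. *Rps6ka6*, the gene of RSK4, was not called, and none of the 8 was called higher. Over all probe sets 1991 were called lower (10.6%) and 1120 higher (5.95%), so differences between the series were widespread and the cascade is one part of them. What sets the series apart cannot be told from the labels.

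*Rps6ka3* was at 10.08 to 10.4 in the 8 ABH samples (median 10.21) and at 9.61 to 10.04 in the 8 AZN samples (median 9.83). Every AZN sample was below every ABH sample, as was the case for 5.42% of all probe sets. The log2 difference was -0.41 (standard error 0.068, adjusted p = 0.000205 from limma), and its interval ran from -31.6% to -16.7%. *Pdpk1* was at 10.35 to 10.54 in ABH (median 10.42) and at 9.92 to 10.16 in AZN (median 10.09). These groups did not overlap either, with a gap between them that exceeded the SD of 0.09 within AZN, and the log2 difference was -0.36 (standard error 0.045, adjusted p = 1.47e-05 from limma).

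*Braf* was at 9.53 to 9.73 in ABH (median 9.68) and at 9.15 to 9.48 in AZN (median 9.31), again without overlap. Its log2 difference was -0.32 (standard error 0.05, adjusted p = 0.000109 from limma). *Rps6ka5* was at 7.9 to 8.29 in ABH (median 8.17) and at 7.47 to 7.91 in AZN (median 7.82), and 7 of the 8 AZN samples lay below all ABH samples. Its log2 difference was -0.35 (standard error 0.066, adjusted p = 0.00057 from limma). In the WT samples alone *Rps6ka5* and *Braf* differed by -0.2 and -0.23 and in the *Rsk2-/Y* samples alone by -0.51 and -0.42, so that 2 of the 8 genes were called lower from WT samples and 4 from *Rsk2-/Y* samples. Over all probe sets, 9.28% were called lower from WT samples and 11.2% from *Rsk2-/Y* samples. The gap between the 2 genotypes in these values is the interaction given above, which was not called.

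*Rps6ka6* was at 8.81 to 9.1 in ABH and at 8.56 to 9.01 in AZN, and the groups overlapped. Its log2 difference of -0.21 (adjusted p = 0.019 from limma) did not reach a fold change of 1.2. The MEK and SHP2 genes did not share the lower AZN signal. *Map2k1* was at 8.59 to 8.83 in ABH and at 8.78 to 9.06 in AZN, and all 8 AZN samples lay above the ABH mean. The log2 difference was 0.18 (standard error 0.045, adjusted p = 0.00471 from limma), under the fold of 1.2. *Ptpn11* differed by 0.097 (interval 0.011 to 0.18, adjusted p = 0.0714) and *Map2k2* by 0.01 (interval -0.062 to 0.083, adjusted p = 0.833). An adjusted p under 0.1 alone was met by 44.8% of all probe sets and by 7 of the 8 genes.

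**Figure D3:**
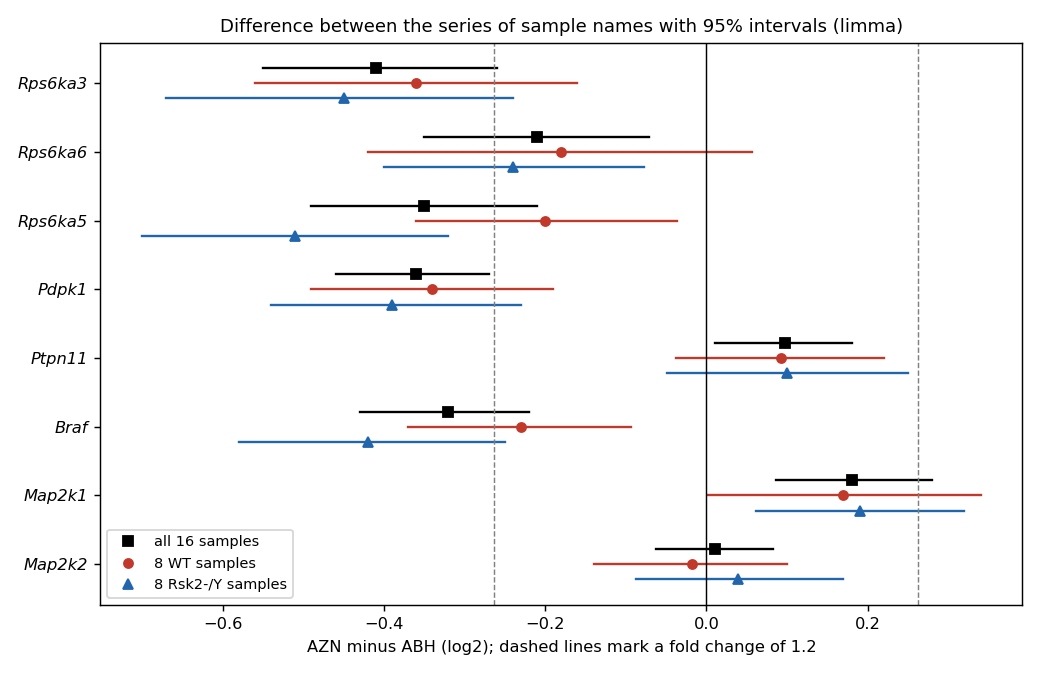
Differences between the series (AZN minus ABH, log2, on the x axis) of the 8 genes with 95% intervals from limma, over all 16 samples with genotype in the model (squares), the 8 WT samples (circles) and the 8 *Rsk2-/Y* samples (triangles). Over all 16 samples *Rps6ka3*, *Rps6ka5*, *Pdpk1* and *Braf* lie beyond the line of a 1.2-fold lower signal, and *Map2k1* lies above 0 at 0.18. In the 8 WT samples *Rps6ka5* at -0.2 and *Braf* at -0.23 do not reach that line.

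Markers of other tissues differed between the series as well. All 22 skeletal muscle genes lay above 0 in AZN against ABH (median 0.601, 9 called), with list means of 7.4 to 9.4 in ABH and 7.93 to 9.76 in AZN. All 7 measured erythroid genes lay above 0 (median 0.446, 3 called). Of 18 epithelial genes 13 lay below 0 (median -0.148, 4 called lower and 1 higher), among them *Shh*, the signal of the enamel knot, at -0.81 (adjusted p = 0.00269 from limma). Of 15 mesenchymal genes 11 lay below 0 (median -0.072, 4 called lower and 1 higher). The 2 samples highest in muscle genes were 1 from each series, ABH_14A and AZN_MolairesMutant3. Without them, the differences were -0.42 for *Rps6ka3*, -0.38 for *Pdpk1*, -0.31 for *Rps6ka5* and -0.29 for *Braf*, and all 4 were still called. The muscle list means left were 7.4 to 8.43 in ABH and 7.93 to 8.86 in AZN. The series thus still differed in muscle genes, and the part of muscle content was not tested by this.

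The signal of each gene was also regressed on the mean of the epithelium list and on that of the muscle list, with genotype and series in the model. None of the 8 genes was called on the epithelium mean, against 0.844% of all probe sets. At an unadjusted p under 0.05 in limma, 1201 of 18834 probe sets rose with this mean and 519 fell. The slopes of *Rps6ka3* and *Rps6ka6* were 0.5 and 0.45 log2 units per unit of the list (unadjusted p = 0.0312 and 0.0506, adjusted p = 0.491 and 0.547 from limma). In the AZN samples alone they were 0.57 and 0.6, and in the ABH samples alone -0.095 and -0.83. When every array was centred on its median, both were called, at 0.76 and 0.66 (adjusted p = 0.0552 and 0.0771), but so were 1858 probe sets in place of 159. None of the 8 genes was called on the muscle mean either, against 3.27% of all probe sets, where *Rps6ka3* had a slope of -0.15 (unadjusted p = 0.00992, adjusted p = 0.154 from limma) and *Ptpn11* of -0.079 (unadjusted p = 0.0293, adjusted p = 0.224). At an unadjusted p under 0.05 in limma, 1369 of 18834 probe sets rose with the muscle mean and 2110 fell.

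With the means of each genotype and series subtracted, the RSK genes *Rps6ka3* and *Rps6ka6* varied together across the 16 pools, with Pearson r = 0.81 and Spearman rho = 0.84. This was the highest of the 28 pairs among the 8 genes, which ranged from -0.18 with a median of 0.21. The value was 0.54 in ABH and 0.94 in AZN, and 0.77 without the 2 pools farthest from the median in *Rps6ka3*. Of all genes, 2.65% followed *Rps6ka3* at least as closely. *Rps6ka5* and *Braf* had r = 0.78 and rho = 0.8, with 0.91 in ABH and 0.77 in AZN, and 0.65 without the 2 pools farthest from the median in *Rps6ka5*. Only 0.192% of genes followed *Rps6ka5* as closely as *Braf* did. The pools share dissection and array processing, so these values describe the samples.

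The 5 genes whose pattern was most like that of *Rps6ka3* among 17214 were *Adss* (r = 0.95), an enzyme of purine synthesis, *Mtmr9* (0.95), of the myotubularin family, *Ssh2* (0.95), a cofilin phosphatase, *Coro1a* (0.94), an actin-binding protein, and *Acadsb* (0.94), an enzyme of fatty acid and branched-chain amino acid breakdown. None of the 5 was called between genotypes, and *Adss* was called lower in AZN, at -0.33 (adjusted p = 0.000147 from limma).

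**Figure D4:**
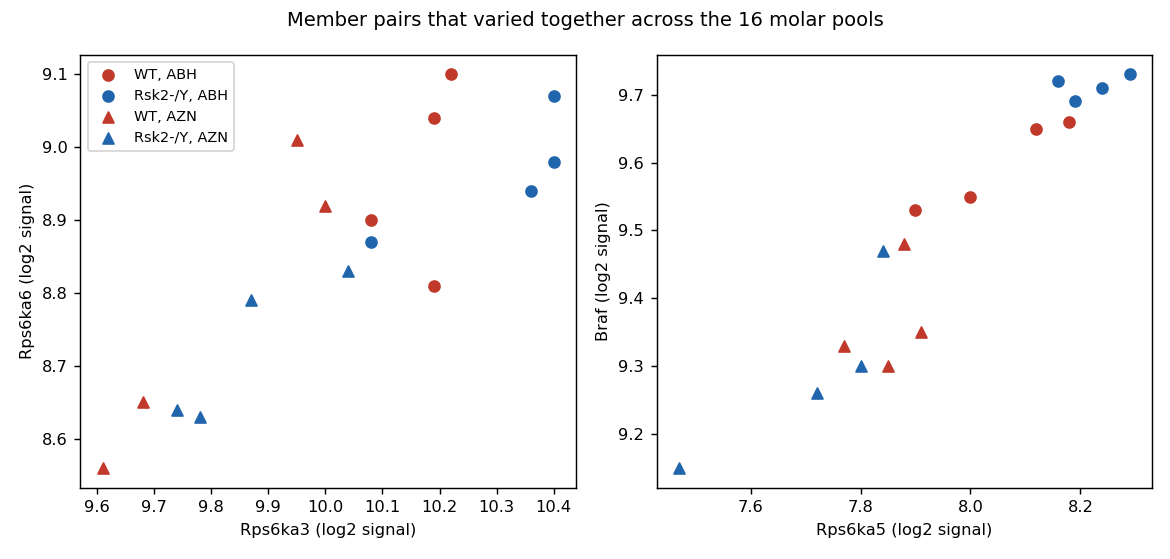
Log2 signals of *Rps6ka6* against *Rps6ka3* (left) and of *Braf* against *Rps6ka5* (right) in the 16 pools; red is WT, blue *Rsk2-/Y*, circles ABH and triangles AZN. The plotted values include the difference between the series, and with the means of genotype and series subtracted the correlations were 0.81 and 0.78.

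The rest of the pathway was read from lists of 110 genes, of which 96 were tested. None was called between genotypes, and their log2 differences lay between -0.18 and 0.42. The value of 0.42 (standard error 0.11) was that of *Mef2c*, a transcription factor listed among the RSK and MSK substrates that also drives muscle differentiation, at 9.52 in WT and 9.94 in *Rsk2-/Y* on average (unadjusted p = 0.00157, adjusted p = 0.77 from limma). It also followed the muscle mean, with a slope of 0.29 (adjusted p = 0.058). Among the activators from adaptors to ERK2, 19 of 26 lay below 0 (median -0.032, all genes -0.016), and the smallest p values were those of the scaffold *Cnksr1* at -0.18 (unadjusted p = 0.0375) and the adaptor *Grb2* at -0.12 (unadjusted p = 0.0567), both with adjusted p = 1.0. *Cnksr1* was also called on the epithelium mean, with a slope of 0.83 (adjusted p = 0.0138 from limma), against 0.844% of all probe sets. The part of epithelium content in its genotype difference was not tested. Among the inhibitors, 10 of 18 lay below 0, with *Rasa2*, a RAS GTPase activator that turns RAS off, at 0.17 (unadjusted p = 0.0196) and *Spred3*, which restrains RAF, at -0.16 (unadjusted p = 0.0509). The substrates had a median of -0.013, and *Mitf*, the melanocyte transcription factor, was at 0.084 (unadjusted p = 0.141). In the PDPK1 and AKT branch the median was -0.018, with *Prkca* at 0.064 and *Pkn3* at -0.086.

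Between the series 21 of the 96 genes were called, 16 lower and 5 higher in AZN, where 10.6% of all probe sets were called lower and 5.95% higher. These shares are also the background of the counts for each list that follow. The RAS exchange factors *Sos1* and *Sos2*, which load RAS with GTP, fell by 0.34 and 0.4 on the log2 scale, and the adaptor *Gab1*, a partner of SHP2, by 0.3. *Nras* was at -0.23 (adjusted p = 8.53e-05), under the fold. In all 6 activators were called lower and 1 higher, of 26 tested (median -0.09, all genes 0.017). The inhibitors were called in both directions too, 4 lower and 1 higher of 18 (median -0.07). *Rasa1*, another RAS GTPase activator, fell by 0.46 (adjusted p = 7.23e-06 from limma), while *Spred2* rose by 0.31 (adjusted p = 5.14e-05).

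Downstream, 4 of 33 substrate genes were called lower and 2 higher (median 0.04). *Gsk3b*, a kinase that RSK inhibits, fell by 0.45 (adjusted p = 9.41e-05 from limma) and *Hmgn1*, a nucleosome protein phosphorylated by MSK kinases, by 0.32 (adjusted p = 3.67e-05). *Atf1*, a partner of CREB1 on the cAMP response element, rose by 0.32 (adjusted p = 0.000621), while *Creb1* was at -0.26 (adjusted p = 0.000191), just under the fold. In the PDPK1 and AKT branch, 2 of 15 genes were called, *Rictor*, a subunit of the mTOR complex 2, at -0.46 (adjusted p = 1.71e-06) and *Prkci*, an atypical protein kinase C, at -0.33 (adjusted p = 7.73e-05). Of the related kinases *Mknk2*, an ERK-activated kinase of the translation factor eIF4E, rose by 0.33 (adjusted p = 3.91e-05), and its relative *Mknk1* was at -0.24 (adjusted p = 0.000249), under the fold. *Rps6kb2* and *Rps6kl1* were at 0.041 and 0.071 and did not pass. *Rps6ka1*, *Rps6ka2*, *Rps6ka4* and *Rps6kb1* were not analysed here.

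**Figure D5:**
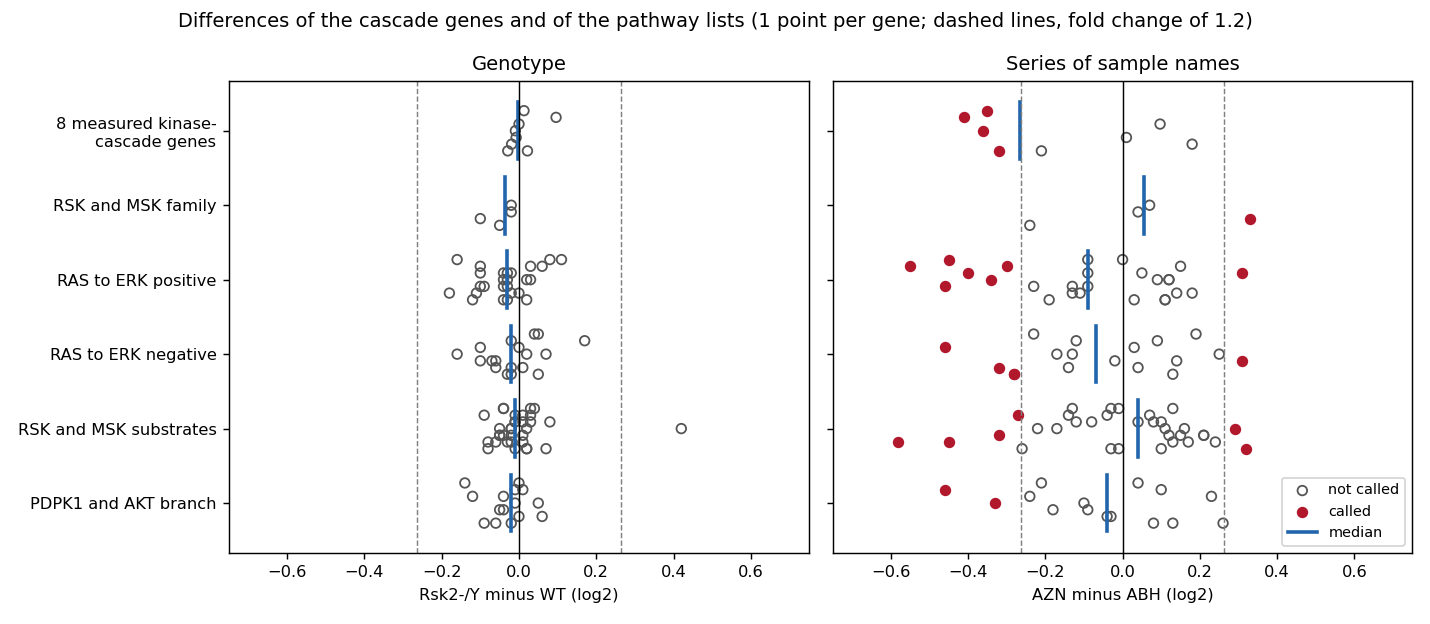
Log2 differences of the 8 genes and of 96 genes in 5 pathway lists (1 point per gene, rows are lists, x axis in log2) between genotypes (left) and between the series (right); filled points passed an adjusted p under 0.1 and a fold of 1.2, and blue bars are medians. No point is filled for genotype, where *Mef2c* stands alone at 0.42, and 25 points are filled for the series.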

How the data were processed

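The authors deposited log2 signals per probe set, made from the raw arrays with RMA in Affymetrix Expression Console 1.3.1.187 by the submitters' processing notes. RMA corrects the background, gives all arrays the same distribution of probe values and summarises probes, which narrows differences between arrays. The labels give 150 ng of RNA from 4 germs per pool, and the paper gives another amount. The paper names Partek and no genome build. The precision is set by the number of arrays, which hold no counts.

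The platform annotation gives 1 symbol to 21789 of the 35556 probe sets, which were used, several to 1621 and no symbol to 12146. Genotype groups follow the labels and series follow the start of the sample name. Signals above 5 in at least 1 sample were tested with limma 3.58.1 in R 4.3.3 (lmFit, eBayes, two-sided, Benjamini-Hochberg over 18834 probe sets) at an adjusted p under 0.1 and a fold of 1.2. The scripts were tested on simulated data. Python 3.11.15, NumPy 2.4.6, pandas 2.3.3, SciPy 1.17.1 and matplotlib 3.10.9 were used. No 2 arrays held identical values, and their correlations ran from 0.976 to 0.9967.

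The genes, lists and alternatives were chosen with earlier results of these data known. Genes named besides the 8 are the list genes with the smallest p in each comparison (2 per list), the related kinases, 5 genes most like *Rps6ka3* and tissue markers. *Gab1*, *Sos1*, *Creb1*, *Atf1* and *Smpx*, a neighbour of *Rps6ka3*, were named after their values were seen. Lists were described by counts and medians for the RSK and MSK family, RAS to ERK activators and inhibitors, substrates, the PDPK1 and AKT branch, dental epithelium and mesenchyme, skeletal muscle, osteoblasts, endothelium, macrophages and erythroid cells.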

Additional observations from a re-analysis of the deposited data

Results flagged for a closer look

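In 48 groups of 4 or 8 samples checked over the 8 genes, 2 held a sample that stood apart from the rest of its group by Dixon's test, which flags about 1 in 20 groups by chance. *Rps6ka3* was at 10.08 in ABH_14A, the lowest of the 4 *Rsk2-/Y* ABH samples, whose others were at 10.36 to 10.4. That sample also had the second highest mean of skeletal muscle genes, 9.4. *Ptpn11* was at 10.44 in AZN_MolairesMutant, the highest of the 4 *Rsk2-/Y* AZN samples, whose others were at 10.32 to 10.33.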

How the results depend on the processing

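The calls lower in AZN of *Rps6ka3*, *Pdpk1*, *Rps6ka5* and *Braf* kept their direction under every alternative, and in the WT samples alone 2 of the 4 were called. The genotype count of 0 became 4 with the ABH samples only, 1 with the series as a block, and 0 to 10 with 1 sample left out, the 10 without AZN_MolairesWT2. None of the 8 genes was among these calls. A t-test, which the paper names for comparing 2 groups but not for the arrays, called 0 after Benjamini-Hochberg adjustment. The paper, which processed the arrays with Partek, does report differentially expressed genes at the same false discovery rate and fold. The source of this gap was not tested.

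The name numbers of the AZN samples are held by both genotypes in few cases, and the labels do not say whether they pair samples. Deviations correlated at -0.034 and -0.013 for the numbers 1 and 3 and at 0.684 for the unnumbered samples. Samples were not treated as paired in the main fits. The name number as a replicate block with the series left 0 genotype calls, with none of the 8 genes called. This block was run for the genotype comparison alone. Without the unnumbered samples, an alternative chosen after seeing the data, as was leaving out the 2 samples highest in muscle, 0 were called too.

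Genotype differences near 0 changed sign under some alternatives. *Rps6ka6* was at 0.0012 in ABH and 0.00012 without the samples highest in muscle, *Rps6ka5* at -0.14, *Map2k2* at 0.021 and *Braf* at -0.07 in AZN, *Pdpk1* at 0.013 and *Ptpn11* at -0.0053 in ABH, and *Ptpn11* at -0.0091 with arrays centred on their median. Without the unnumbered samples *Map2k1* was at 0.0012, *Pdpk1* at 0.0001 and *Ptpn11* at -0.0039. With 1 sample left out, the ranges were -0.011 to 0.072 for *Braf*, -0.05 to 0.018 for *Map2k1*, -0.017 to 0.0053 for *Map2k2*, -0.057 to 0.034 for *Pdpk1*, -0.02 to 0.027 for *Ptpn11*, -0.033 to 0.083 for *Rps6ka5* and -0.074 to 0.0028 for *Rps6ka6*. The series difference of *Map2k2* was -0.018 in WT, -0.0042 without the unnumbered samples and -0.0024 to 0.022 with 1 sample left out.

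The slope counts moved most. On the epithelium mean 159 probe sets became 0 in ABH, 5 in AZN, 1858 with centred arrays (2 of the 8 genes in place of 0), 52 without the 2 farthest samples and 15 to 198 with 1 sample left out, down to 103, 15 and 89 without AZN_MolairesMutant3, AZN_MolairesWT2 and AZN_MolairesWT. Slopes that reversed there were -0.095 for *Rps6ka3*, -0.83 for *Rps6ka6*, -0.24 for *Map2k1* and -0.063 for *Pdpk1* in ABH, 0.026 for *Ptpn11* in AZN and 0.24 with centred arrays, and -0.21 for *Rps6ka5* and -0.074 for *Braf* without the 2 farthest samples. With 1 sample left out they ranged from -0.045 to 0.4 for *Braf*, -0.16 to 0.17 for *Map2k1*, -0.029 to 0.15 for *Map2k2*, -0.099 to 0.3 for *Pdpk1*, -0.067 to 0.017 for *Ptpn11* and -0.14 to 0.83 for *Rps6ka5*. On the muscle mean 615 became 256 in ABH, 214 in AZN, 243 with centred arrays, 79 without the 2 farthest samples and 245 to 888 with 1 sample left out. There *Map2k2* turned to -0.022 in AZN and -0.013 with centred arrays, and *Braf* to 0.0088 in ABH and -0.086 to 0.0055 with 1 sample left out. The cause of these changes was not tested.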

Other observations

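All 5 measured osteoblast genes lay above 0 in *Rsk2-/Y* against WT (median log2 difference 0.273, 0 called, 2 with an unadjusted p under 0.05 in limma) and in AZN against ABH (median 0.26, 2 called higher). All 8 endothelial genes lay below 0 in *Rsk2-/Y* (median -0.083), with none called. The 8 macrophage genes had medians of 0.033 between genotypes and -0.097 between the series, and none was called in either comparison. The 15 genes of the dental mesenchyme, the tissue on which the enamel knot acts, had a median of 0.012 between genotypes, with 8 above and 7 below 0.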
